A study of Homo sapiens with 15 samples.

Results

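The BMP ligands and response genes are 10 genes of the bone morphogenetic protein (BMP) pathway that were taken by gene symbol from the 60605 genes of the expression table. The 5 ligands were BMP2, BMP4, BMP5, BMP7 and BMP10, and the 5 response genes were ID1, ID2, ID3, SMAD6 and BAMBI. All 10 reached 1 FPKM (read counts scaled to the exon length of the gene and to the library's total) in at least 1 library, as did 21206 genes of the table. Bulk RNA sequencing covered 15 libraries of H1 cells, a wild-type and established human embryonic stem cell line, taken during cardiac differentiation. Day 0 cells were switched to a defined basal medium with CHIR99021, which activates WNT signalling, and received insulin on day 1, and the libraries of days 0, 1 and 2 stand before the arms divide. The 3 arms have a single library apiece on days 3, 5, 7 and 10. NP-ctrl cells were not passaged and got no further inducer, NP-IWP2 cells were not passaged and got IWP2, a blocker of WNT secretion, from day 2 to day 4, and passaged cells were detached with EDTA on day 2 and replated at lower density without IWP2. The study added the ROCK inhibitor Y27632 at replating in its later experiments, the labels do not say whether these passaged cells got it, and its part and that of passaging cannot be told apart. No group has a second culture, so the only repetition is over days within 1 series of cultures of 1 line, and p-values measure the spread of an arm difference from day to day.

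BMP ligands are secreted dimers that bring type I and type II receptors together. The receptors phosphorylate SMAD1, SMAD5 and SMAD9, which enter the nucleus with SMAD4 and switch on a small set of direct targets, among them the ID genes and the inhibitors SMAD6 and BAMBI. In the embryo BMP signals help to set up mesoderm and to direct it towards the heart, and secreted antagonists limit where they act. The study asked how passaging and IWP2 change the course of differentiation, and the BMP genes are described here by arm and by day.

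The 5 response genes stood together in the day 10 comparison of the arms, so the 250 bases upstream of their RefSeq starts are shown with those of BMP4, the member with the largest fitted difference between passaged and NP-ctrl cells, and BMP5, which went from no reads to the leading ligand. Sequences are from RefSeq on GRCh38.p14, in the 5′ to 3′ direction of the gene, and capitals mark GGCGCC, the core of the GC-rich SMAD site. Of the 10 members, 8 matched the promoter table, and BMP4 has 3 listed starts, of which the first is printed. The windows are chr20:31605039-31605288 (plus strand) for ID1, chr2:8681806-8682055 (plus) for ID2, chr1:23559502-23559751 (minus) for ID3, chr15:66701986-66702235 (plus) for SMAD6, chr10:28677271-28677520 (plus) for BAMBI, chr14:53955051-53955300 (minus) for BMP4 and chr6:55875591-55875840 (minus) for BMP5.
ID1: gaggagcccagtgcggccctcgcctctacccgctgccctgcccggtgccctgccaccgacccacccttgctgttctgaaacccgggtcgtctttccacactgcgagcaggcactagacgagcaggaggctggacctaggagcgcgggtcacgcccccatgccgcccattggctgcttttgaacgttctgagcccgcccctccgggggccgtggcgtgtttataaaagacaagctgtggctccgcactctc
ID2: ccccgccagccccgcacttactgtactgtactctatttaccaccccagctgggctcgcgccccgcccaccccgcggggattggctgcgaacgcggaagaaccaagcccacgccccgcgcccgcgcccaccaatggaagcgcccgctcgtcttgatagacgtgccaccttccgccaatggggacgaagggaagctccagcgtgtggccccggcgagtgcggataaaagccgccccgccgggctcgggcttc
ID3: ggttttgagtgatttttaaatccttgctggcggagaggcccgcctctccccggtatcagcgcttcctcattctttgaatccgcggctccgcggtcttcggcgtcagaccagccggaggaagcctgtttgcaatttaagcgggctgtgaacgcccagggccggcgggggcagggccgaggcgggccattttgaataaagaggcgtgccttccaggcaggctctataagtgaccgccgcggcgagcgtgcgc
SMAD6: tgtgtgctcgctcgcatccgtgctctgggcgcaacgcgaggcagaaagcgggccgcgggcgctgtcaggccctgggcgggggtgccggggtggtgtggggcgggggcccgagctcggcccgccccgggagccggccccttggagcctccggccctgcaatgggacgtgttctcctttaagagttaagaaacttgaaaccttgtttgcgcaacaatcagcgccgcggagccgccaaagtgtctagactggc
BAMBI: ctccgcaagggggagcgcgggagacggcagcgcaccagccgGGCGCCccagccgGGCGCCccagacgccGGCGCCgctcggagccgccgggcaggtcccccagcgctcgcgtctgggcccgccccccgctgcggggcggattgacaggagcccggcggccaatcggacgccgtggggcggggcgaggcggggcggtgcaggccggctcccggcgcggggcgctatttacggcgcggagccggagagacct
BMP4: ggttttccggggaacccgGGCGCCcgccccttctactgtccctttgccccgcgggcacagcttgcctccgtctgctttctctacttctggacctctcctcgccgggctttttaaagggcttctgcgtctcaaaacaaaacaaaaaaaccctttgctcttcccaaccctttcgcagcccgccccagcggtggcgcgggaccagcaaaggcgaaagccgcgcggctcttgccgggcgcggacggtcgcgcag
BMP5: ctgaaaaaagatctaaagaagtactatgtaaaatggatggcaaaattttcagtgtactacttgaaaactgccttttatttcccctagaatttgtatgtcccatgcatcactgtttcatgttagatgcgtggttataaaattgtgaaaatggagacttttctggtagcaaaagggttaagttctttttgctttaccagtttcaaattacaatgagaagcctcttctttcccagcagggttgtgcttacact
GGCGCC, which reads the same on both strands, occurred 3 times upstream of BAMBI and once upstream of the first BMP4 start, and in 16.4% of 35116 promoter windows of this length. The windows of BMP4 starts 2 and 3 and of BMP10, which are not printed, held none. The SMAD box GTCT, searched on both strands, occurred 4 times for BAMBI, 3 times for ID1, 2 times each for ID2, ID3, SMAD6 and this BMP4 start, and once for BMP5, but 77.5% of all windows hold it. The E-box CAGCTG was found once, upstream of ID2, against 14.0% of all windows. GGCGCC and GTCT cannot overlap, CAGCTG can share 1 end base with either, and a match is only a match of letters. GC content ran from 35.6% upstream of BMP5 to 81.2% upstream of BAMBI.

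Total counts ran from 13254723 to 20250115 per library, and a gene with 1 kilobase of exon needed 0.148 to 0.226 FPKM to reach 3 counts. Intervals below are exact 95% intervals for counting error only. The labelled cells were checked with marker genes. The 4 pluripotency markers POU5F1, NANOG, SOX2 and DPPA4 summed to 969 FPKM on day 0, and 5 cardiomyocyte markers summed to 424 FPKM in NP-ctrl on day 10, 1339 with IWP2 and 3276 after passaging. The same libraries held 3671, 1095 and 17.9 FPKM of 5 endoderm and liver markers, 3988, 1040 and 83.6 FPKM of 4 fibroblast markers, and 69.0, 76.4 and 0.17 FPKM of 4 epicardial markers, with WT1, TBX18, TCF21 and UPK3B all under 0.1 FPKM in passaged cells. Mitochondrial genes took 3.72%, 6.02% and 10.3% of counts on day 10 in the same order, and 1.53% in passaged cells on day 3. These marker sums differed between arms, and their part in the results was not tested. In these bulk samples fewer cells of a type and less RNA per cell cannot be told apart.

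Before the arms divided, the ligands came up one after another. BMP2 (chr20:6767686-6780246, plus strand), a ligand of early mesoderm and heart, went from 0.95 FPKM on day 0 to 20.27 a day later and 33.57 on day 2. The first step was a 21.4-fold ratio (16.4 to 28.4), the largest step of the members over these 3 days. BMP4 (chr14:53949736-53958761, minus strand), which induces mesoderm, followed a day later with 1.33, 3.26 and 20.19 FPKM, a ratio of 6.20 (5.31 to 7.27) from day 1 to day 2. BMP7 (chr20:57168753-57266641, minus strand), a broadly expressed partner ligand, stayed between 10.71 and 11.74 FPKM over these days. BMP5 (chr6:55753653-55875590, minus strand) had 0, 0 and 3 counts, and BMP10 (chr2:68860909-68871397, minus strand), a ligand of the developing heart wall, had none. Of the 10 members, 2 lay at least 1 higher on log2(FPKM + 1) on day 1 than on day 0, BMP2 and ID2, where 6.74% of all genes differed this much in either direction. On day 2 against day 1 there were again 2, BMP4 and SMAD6, beside 7% of all genes.

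BMP4 was lower after passaging on every day. NP-ctrl held 74.90, 153.63, 94.77 and 45.16 FPKM on days 3, 5, 7 and 10. NP-IWP2 held 48.87, 129.91, 70.60 and 38.83. Passaged cells held 29.91, 30.88, 27.02 and 3.33, the lowest of the arms on every day, and lacked the day 5 peak of both cultures that stayed in place. The passaged level was 2.50-fold lower than NP-ctrl on day 3 (2.35 to 2.67), 4.97-fold on day 5 (4.70 to 5.26), 3.51-fold on day 7 (3.29 to 3.74) and 13.5-fold on day 10 (11.5 to 16.0). Fitted over days 3 to 10, passaged minus NP-ctrl was −2.13 ± 0.35 (SE, log2) with an edgeR adjusted p of 0.00851. Against NP-IWP2 the fitted difference was −1.76 ± 0.35 (edgeR adjusted p = 0.0381), where BMP4 was the 1 member called and 1.33% of all genes were. The adjusted p against NP-ctrl was 0.0766 without day 5, 0.0648 without day 7 and 0.073 with only these 2 arms in the edgeR fit, and that against NP-IWP2 was lost without day 5, 7 or 10 (0.241, 0.181 and 0.0551). An unnamed gene (ENSG00000287156) overlaps BMP4 on the other strand with at most 148 counts, and whether the counting used the strand is not given in the sources used here.

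BMP7 differed in the opposite direction. NP-ctrl stayed at 8.48, 6.59, 9.79 and 8.45 FPKM, below the day 2 level of 11.15. Passaged cells stepped up to 19.06 and 26.16 on days 3 and 5 and to 46.21 and 46.27 on days 7 and 10. NP-IWP2 was beside NP-ctrl on days 3 and 5 with 10.35 and 6.84 and then held 39.95 and 29.99 on days 7 and 10, so passaged and NP-IWP2 cells reached higher BMP7 levels on different days. Passaged cells were 2.25-fold above NP-ctrl on day 3 (2.06 to 2.46) and 5.48-fold on day 10 (5.03 to 5.97). Over days 3 to 10 passaged minus NP-ctrl was 1.96 ± 0.34 (edgeR adjusted p = 0.0106), and the adjusted p was 0.0509 without day 5, 0.07 without day 7 and 0.0545 without day 10. With BMP4, 2 of the 10 members passed in this comparison, where 4.4% of the 21206 genes did. NP-IWP2 minus NP-ctrl was 1.03 ± 0.34 for BMP7 (edgeR adjusted p = 0.891). None of the 10 members passed between NP-IWP2 and NP-ctrl, where edgeR called 0.0189% of all genes (4 genes, with 1009 at an unadjusted p under 0.05) and DESeq2 called 55 genes. Among the members 1 had an unadjusted p under 0.05 there, and neither DESeq2 nor limma called any. BMP7 overlaps BMP7-AS1 on the other strand, which had at most 10 counts.

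BMP2 was lowest in passaged cells on day 3 and highest there from day 5 on. NP-ctrl had 15.57, 12.39, 20.90 and 19.78 FPKM on days 3, 5, 7 and 10, and NP-IWP2 had 28.99, 11.33, 56.60 and 28.21. Passaged cells began lowest on day 3 with 9.20, had 29.49 on day 5 and reached 109.10 and 92.88 on days 7 and 10. The passaged level was thus 0.591 of NP-ctrl on day 3 (0.526 to 0.662) but 5.22-fold above it on day 7 (4.88 to 5.59) and 4.70-fold on day 10 (4.38 to 5.04). The fit over all 4 days gave 1.53 ± 0.50 (edgeR adjusted p = 0.113), and without day 3, where the arms lay in the other order, 2.02 (edgeR adjusted p = 0.00291). That fit called 2373 of the 21206 genes against 933 with all days, and BMP2 was not called with day 5, 7 or 10 left out instead. With all days, DESeq2 called BMP2 at 1.52 (DESeq2 adjusted p = 0.0161), among 2150 genes in all. Without the filter on low values edgeR called it at 1.54 (edgeR adjusted p = 7.57e-06), among 2571 genes, and limma did not call it.

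BMP5, a ligand expressed in the forming heart tube, came on in every arm. It had 14.68, 125.09, 79.80 and 94.72 FPKM in NP-ctrl, 7.90, 203.88, 131.57 and 161.06 with IWP2 and 15.08, 100.56, 19.96 and 108.16 after passaging. The step from 3 counts on day 2 to 947 counts in NP-ctrl on day 3 was a 393-fold ratio (134 to 1911). Fitted over the 3 arms it rose by 3.24 ± 0.53 (log2) from day 3 to day 10 (edgeR adjusted p = 0.000888), and this call held in each of 8 alternatives. The passaged course had a dip on day 7 that the other arms lacked to this extent, 5.04-fold under day 5 and 5.42-fold under day 10. On day 7 passaged cells were at 0.250 of NP-ctrl (0.234 to 0.267), and on day 10 they were 1.14-fold above it (1.10 to 1.18). BMP5 passed in no arm difference. BMP10 stayed low with 10 to 105 counts in 11 of the 12 libraries from day 3 on, or 0.11 to 1.29 FPKM, and 289 counts (3.14 FPKM) in passaged cells on day 5. It passed the minimum of 1 FPKM only through NP-IWP2 on day 3 and passaged cells on day 5, and no difference of BMP10 passed the test.

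**Figure D1:**
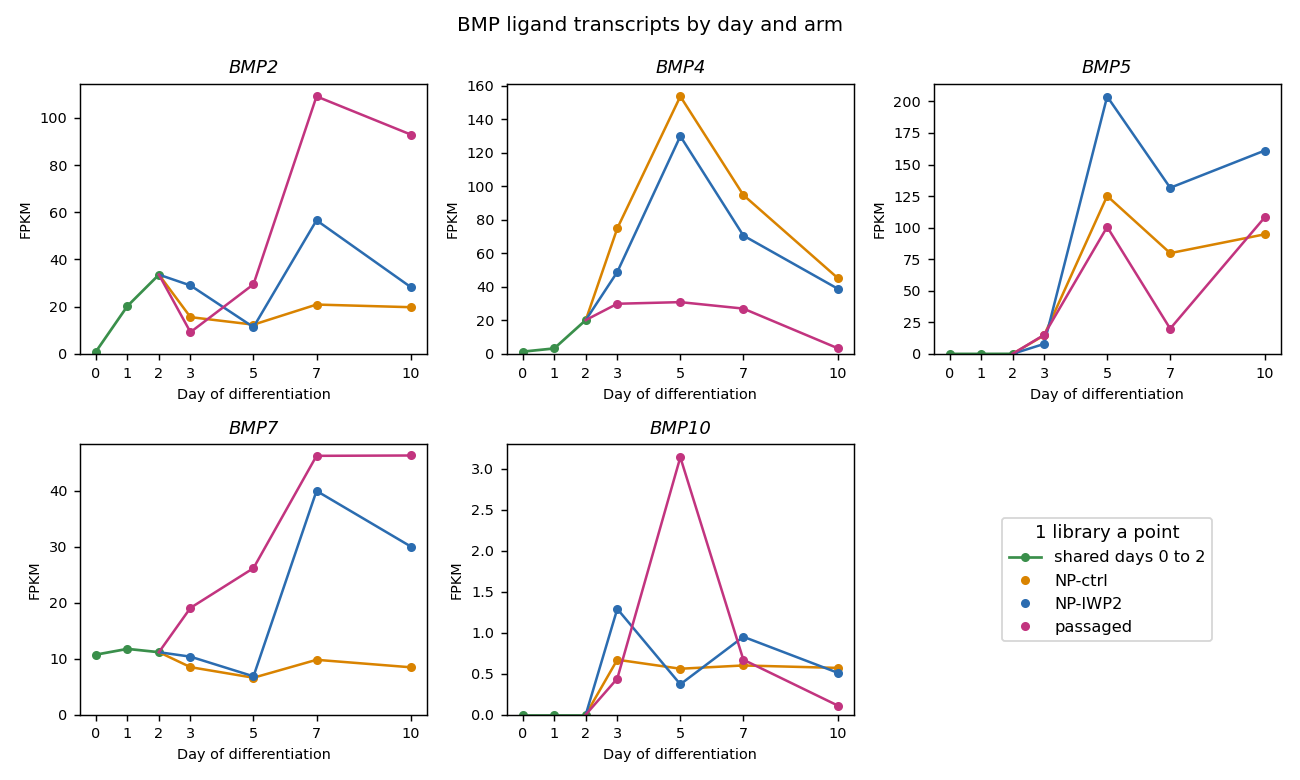
FPKM (vertical axes, each from 0) of the 5 ligands against the day of differentiation, with 1 library a point, the shared days 0 to 2 in green, NP-ctrl in orange, NP-IWP2 in blue and passaged cells in pink. BMP4 is lowest in passaged cells on each of days 3 to 10, and BMP2 and BMP7 are highest there on days 7 and 10, at 109.10 and 46.21 FPKM on day 7.

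The 3 ID genes were already expressed on day 0, before BMP2 and BMP4 came up. ID1 (chr20:31605283-31606515, plus strand), ID2 (chr2:8678845-8684461, plus strand) and ID3 (chr1:23557926-23559501, minus strand) encode inhibitors of bHLH transcription factors. On day 0 they had 77.61, 18.74 and 84.29 FPKM, at a summed ligand level of 12.99 FPKM, of which BMP7 made up 82.4%. SMAD6 (chr15:66702236-66782849, plus strand), which blocks receptor-activated SMADs, had 2.08, 3.73 and 9.69 FPKM on days 0, 1 and 2. BAMBI (chr10:28677510-28682932, plus strand), a decoy receptor without kinase activity, had 13.99, 27.76 and 41.53. All 5 were higher on day 1 than on day 0, with a median difference of 0.94 on log2(FPKM + 1) against 0 for all genes. From day 2 to NP-ctrl day 3, SMAD6 was 4.21-fold higher (3.99 to 4.45), BAMBI 3.42-fold (3.24 to 3.61) and ID2 2.61-fold (2.45 to 2.79), while ID1 and ID3 were 1.27-fold higher each. BMP4 was 3.71-fold higher (3.48 to 3.96), while BMP2 was at 0.464 of its day 2 level (0.429 to 0.501) and BMP7 at 0.761 (0.694 to 0.834). With BMP5, 5 of 10 members were at least 1 higher and 1 at least 1 lower in this step, where 8.71% of all genes were past 1 in either direction.

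On day 3, 4 of the 5 response genes were lower in passaged than in NP-ctrl cells, and 4 of the 5 were lower with IWP2 as well, at a median of −0.53 on log2(FPKM + 1), whereas 3 of the 5 were higher after passaging than with IWP2, at a median of 0.10. On day 3 BAMBI had 141.92 FPKM in NP-ctrl, 46.11 with IWP2 and 74.97 after passaging. SMAD6 had 40.80, 50.91 and 22.15, and ID2 had 82.99, 57.16 and 36.99. On day 5 SMAD6 was 41.79, 45.21 and 13.65, the lowest passaged value relative to NP-ctrl of any response gene at 3.06-fold lower (2.90 to 3.23). ID3 went the other way by a little, at 270.08, 168.50 and 292.65 on day 3 and 114.37, 163.46 and 131.77 on day 5. ID1 had 136.97, 99.94 and 107.05 FPKM on day 3 and 136.59, 109.74 and 214.48 on day 5. The median difference of the 5 response genes between passaged and NP-ctrl cells was −0.85 on day 3 and −0.55 on day 5, against 0.03 and 0 for all genes.

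By day 10 each response gene was highest or second in passaged cells and lowest in NP-ctrl. ID1 had 51.75 FPKM in NP-ctrl, 84.24 with IWP2 and 161.18 after passaging. ID2 had 117.75, 184.31 and 276.08, and BAMBI had 127.00, 187.29 and 337.04. SMAD6 had 20.92, 33.91 and 47.32, so 4 of the 5 were in the order NP-ctrl, NP-IWP2, passaged, and ID3 was the exception with 70.11, 167.85 and 154.72. Passaged cells were above NP-ctrl by 3.11-fold for ID1 (2.89 to 3.36), 2.34-fold for ID2 (2.26 to 2.44), 2.21-fold for ID3 (2.07 to 2.35), 2.26-fold for SMAD6 (2.16 to 2.37) and 2.65-fold for BAMBI (2.56 to 2.76). All 5 of the 5 were at least 1 higher on log2(FPKM + 1), with a median of 1.22 against −0.09 for all genes, and 5.67% of all genes were higher by this much. Day 7 lay between, with 115.65 FPKM of ID1 in NP-ctrl, 110.21 with IWP2 and 239.55 after passaging, and with 203.62, 390.15 and 434.80 FPKM of BAMBI. These 2 genes were past 1 in passaged against NP-ctrl cells, ID3 and SMAD6 were 1.72-fold and 1.41-fold higher, and ID2 was lower at 140.79 FPKM against 168.65. NP-IWP2 was above NP-ctrl on day 10 for 5 of 5 with a median of 0.67, and 1 of them, ID3, was past 1, where 3.71% of all genes were. Expressed as TPM instead (FPKM rescaled to the same sum in every library), the median of all genes between passaged and NP-ctrl cells was 0.28, −0.22 and −0.38 on days 3, 7 and 10. On that scale all 5 response genes were still higher on day 10, with a median of 0.94, but only ID1 and BAMBI stayed past 1, and on day 7 neither was past 1, at 0.91 and 0.96.

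The response genes also ran differently within an arm. ID2 climbed in passaged cells from 36.99 FPKM on day 3 to 276.08 on day 10, a 7.46-fold ratio (7.01 to 7.95), against 1.42-fold in NP-ctrl and 3.22-fold in NP-IWP2. BAMBI in NP-IWP2 was 8.18-fold higher on day 5 than on day 3 (7.73 to 8.67), after a day 3 level 3.08-fold under NP-ctrl (2.90 to 3.27). ID3 in NP-ctrl went down from 270.08 to 70.11 FPKM between days 3 and 10, a ratio of 0.260 (0.245 to 0.275), while in NP-IWP2 it stood at 168.50 and 167.85. Passaged ID3 went down as well, to 0.529 of its day 3 level (0.507 to 0.551). ID1 in NP-ctrl was at 0.378 of its day 3 level on day 10 (0.350 to 0.408) but at 1.51 of it in passaged cells (1.42 to 1.60). From day 7 to day 10 each response gene fell in NP-ctrl. The day 10 level was 0.448 of day 7 for ID1, 0.698 for ID2, 0.521 for ID3, 0.668 for SMAD6 and 0.624 for BAMBI. In NP-IWP2 each fell as well, to between 0.480 and 0.816. Passaged ID1, ID3 and BAMBI fell to 0.673, 0.668 and 0.775, while ID2 and SMAD6 rose to 1.96 and 1.07. The lower NP-ctrl values on day 10 are therefore a part of the day 10 differences between arms. ID2-AS1 overlaps ID2 on the other strand with at most 284 counts, and a gene without a symbol (ENSG00000274995) overlaps SMAD6 on the same strand with at most 25.

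**Figure D2:**
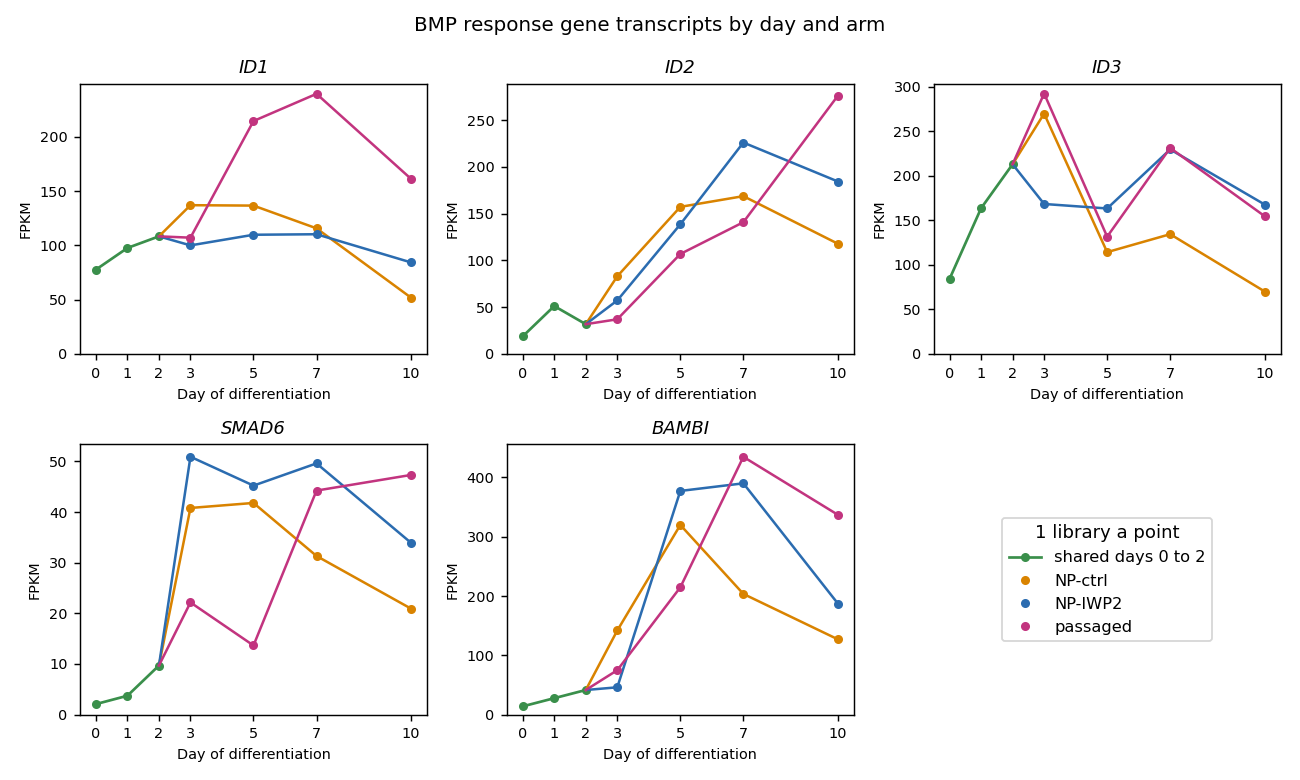
FPKM (vertical axes, each from 0) of the 5 response genes against the day of differentiation, with 1 library a point and colours for the shared days and the 3 arms as named in the key. On day 10 the NP-ctrl point is the lowest in every panel, and the passaged point is the highest in each except ID3, where NP-IWP2 has 167.85 and passaged cells 154.72 FPKM.

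Over days 3 to 10 as a whole none of the 5 response genes passed between passaged and NP-ctrl cells, with fitted differences from −0.14 ± 0.35 for ID2 to 0.79 ± 0.29 for ID1 (edgeR adjusted p = 0.155 for ID1). Among them 1 had an unadjusted p under 0.05, as had 4062 of the 21206 genes, and neither DESeq2 nor limma called any. Without day 3, edgeR called ID1 at 1.19 and ID3 at 0.80 (adjusted p = 0.00963 and 0.0411), in a fit that called 2373 genes against 933 with all days. Without day 5 or day 7 it called 0 members, and without day 10 it called 1, the ligand BMP4. Arm differences were also fitted separately for days 3 and 5 (early) and days 7 and 10 (late), with day as a block and 4 residual degrees of freedom. Late passaged minus NP-ctrl passed for 7 of 10 members, where 14.9% of all genes passed. This difference was 2.51 ± 0.27 for BMP7 (edgeR adjusted p = 0.00037), 2.46 ± 0.55 for BMP2 (edgeR adjusted p = 0.0144) and −2.47 ± 0.49 for BMP4 (edgeR adjusted p = 0.00794). It was 1.49 ± 0.28 for ID1, 1.42 ± 0.40 for BAMBI, 1.12 ± 0.30 for ID3 and 1.01 ± 0.25 for SMAD6, with edgeR adjusted p of 0.00626, 0.0387, 0.032 and 0.0228. ID2 was at 0.70 ± 0.34, and BMP5 and BMP10 at −0.59 ± 0.57 and −0.74 ± 0.93, all short of the threshold. The count was 1 without day 10, 2 without day 7 and 3 with limma on log2(FPKM + 1). It stayed at 7 with mitochondrial genes left out, whose share was highest in passaged cells on day 10. BMP7 passed in each of 10 alternatives, and BMP4 in 9, the exception being the fit without day 10 (edgeR adjusted p = 0.163), the day on which its passaged level was 3.33 FPKM.

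In the early days only BMP7 and SMAD6 passed among the members in edgeR, where 0.976% of all genes did. Passaged minus NP-ctrl was 1.55 ± 0.26 for BMP7 (edgeR adjusted p = 0.0268) and −1.30 ± 0.25 for SMAD6 (edgeR adjusted p = 0.0451), and against NP-IWP2 it was 1.43 ± 0.26 and −1.45 ± 0.25 (edgeR adjusted p = 0.0353 and 0.0314, 0.91% of all genes). These early calls were near the threshold, and those against NP-ctrl were lost without day 5 (adjusted p = 0.0931 for BMP7 and 0.171 for SMAD6 in edgeR), without day 7 (0.0834 and 0.12) and without day 10 (0.0814 and 0.113). SMAD6 was the 1 member past the edgeR threshold for the difference between the periods. Its late minus early difference, passaged against NP-ctrl, was 2.31 ± 0.36 (edgeR adjusted p = 0.0139), in a test that called 3.31% of all genes, and the adjusted p was 0.262 without day 10 and 0.0525 with limma. The other 4 response genes had values of the same sign that missed the threshold, with 2.27 ± 0.56 for BAMBI, 1.62 ± 0.48 for ID2, 1.38 ± 0.39 for ID1 and 1.03 ± 0.42 for ID3 (edgeR adjusted p = 0.0583, 0.101, 0.0899 and 0.214). All 5 had an unadjusted p under 0.05, as had 4103 of the 21206 genes. DESeq2 called 4 of the 5, all but ID3, and 1494 genes in all, so SMAD6 is not shown to differ from the others. Among the ligands 2 of 5 were positive, the median being −0.42 against 1.62 for the response genes.

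Between passaged and NP-IWP2 cells in the late days the 5 response genes lay from 0.08 ± 0.29 for ID3 to 1.16 ± 0.28 for ID1, and none passed (edgeR adjusted p = 0.957 and 0.0548). BMP4 alone of the members passed there, at −2.19 ± 0.49 (edgeR adjusted p = 0.041, 3.15% of all genes), and it was lost without day 10 (edgeR adjusted p = 0.669). Late NP-IWP2 minus NP-ctrl passed for BMP7 alone, at 1.96 ± 0.26 (edgeR adjusted p = 0.0104, 1.61% of all genes), and was lost without day 7 or day 10, where 1 late day remained (edgeR adjusted p = 0.434 and 0.445). Early NP-IWP2 minus NP-ctrl passed for no member and for 0% of all genes in edgeR (344 genes and no member had an unadjusted p under 0.05, and DESeq2 called 7 genes), and its late minus early difference for no member and 0.00472% of all genes. The late minus early difference of passaged against NP-IWP2 cells passed for no member and 0.212% of all genes. DESeq2 called 1 member in each of these 2 late minus early tests, beside 91 and 407 genes in all. There 3 and 2 members had an unadjusted p under 0.05 in edgeR, beside 1881 and 2312 of the 21206 genes. The 3 comparisons of arms share libraries, so their values are not independent of each other. Over the 3 arms, day 10 minus day 3 passed for BMP5 as above, for ID2 at 1.85 ± 0.41 (edgeR adjusted p = 0.00506) and for BMP4 at −1.22 ± 0.40 (edgeR adjusted p = 0.0356), 3 of 10 where 35% of all genes passed. The BMP4 change with time was lost without day 5 or day 7 (edgeR adjusted p = 0.0778 and 0.0534).

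**Figure D3:**
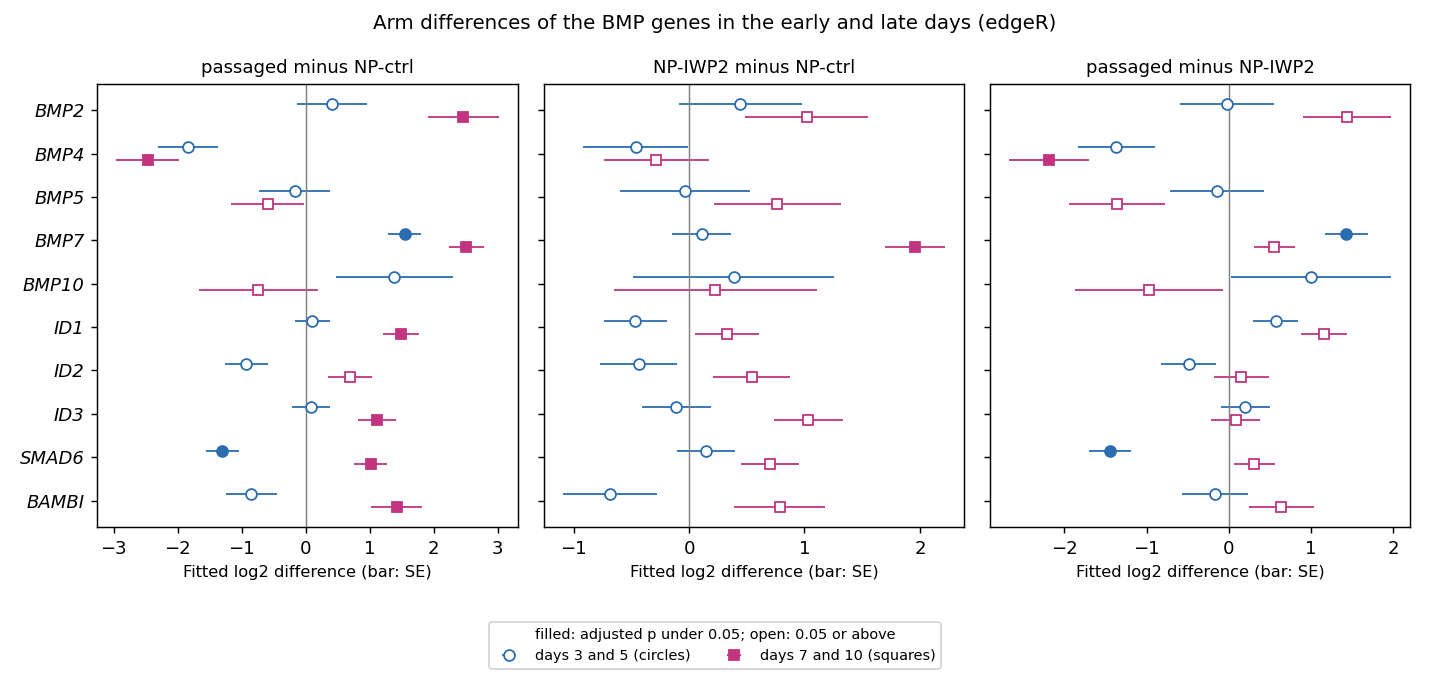
Fitted log2 arm differences (horizontal axes, bars show the SE) of the 10 members for days 3 and 5 (blue circles) and days 7 and 10 (pink squares), from edgeR, in 1 panel per pair of arms. In the left panel the 5 response genes lie between −1.30 and 0.11 early and between 0.70 and 1.49 late, and filled symbols mark an adjusted p under 0.05.

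Set side by side, ligands and response genes differed in how the arms were ordered. The summed ligand level was highest on day 5 in NP-ctrl and NP-IWP2, at 298 and 352 FPKM, and was 190 in passaged cells that day, and the make-up of the sum differed too. BMP4 led in NP-ctrl on days 3, 5 and 7 with 65.5%, 51.5% and 46.0% of the ligand FPKM, and BMP5 on day 10 with 56.2%. In NP-IWP2 BMP4 led on day 3 with 50.2%, and BMP5 on days 5, 7 and 10 with 57.9%, 43.9% and 62.3%. The leading ligand was thus BMP4 in every arm on day 3 and BMP5 in every arm on day 10. In passaged cells BMP4 led on day 3 with 40.6%, BMP5 on day 5 with 52.9%, BMP2 on day 7 with 53.8% and BMP5 on day 10 with 43.1%, when BMP4 was down to 1.33% and BMP2 stood at 37.0%. These are shares of transcript per length, not of protein, and ligands can form mixed dimers. For day 10 the summed ligand FPKM was 169 in NP-ctrl, 259 with IWP2 and 251 after passaging, and the summed response FPKM was 388, 658 and 976. The response to ligand ratio was 15.1 on day 0 and 6.23 on day 2, and then ran from 2.30 in NP-ctrl on day 10 to 7.24 in passaged cells on day 3. Passaged cells had the highest ratio of the arms on each of days 3, 5, 7 and 10. On days 3 and 5, however, their summed response FPKM was below that of NP-ctrl, at 534 against 673 and 681 against 770. The ligand sum holds only the 5 member ligands.

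On single days 3, 5, 6 and 8 of the 10 members were past 1 in either direction between passaged and NP-ctrl cells on days 3, 5, 7 and 10, where 8.49%, 8.16%, 12.6% and 17.4% of all genes were. Between NP-IWP2 and NP-ctrl these counts were 1, 0, 2 and 2 beside 4.15%, 2.97%, 7.26% and 9.35%, and between passaged and NP-IWP2 cells 2, 6, 3 and 2 beside 8.7%, 7.51%, 6.69% and 10.1%. The medians of ligands and response genes came apart. For passaged minus NP-ctrl, ligands had a median difference of −0.21, 1.19, 0.06 and 0.19 on days 3, 5, 7 and 10, whereas the response genes had −0.85, −0.55, 0.78 and 1.22. The ligand median of day 10 turned to −0.10 in TPM, and the signs of the response medians did not turn. On day 5 BMP2, BMP7 and BMP10 were at least 1 higher and BMP4 at least 1 lower in passaged cells, 4 of 5 ligands, while SMAD6 was the only response gene past 1, and it was lower. A ligand median hides members that went in opposite directions, since BMP4 was lower and BMP7 higher on all 4 days. The libraries in which the response genes were high in passaged cells are also those in which cardiomyocyte markers summed to 2700 FPKM on day 7 and 3276 on day 10, against 555 and 424 in NP-ctrl, and the part of this in the response values was not tested.

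**Figure D4:**
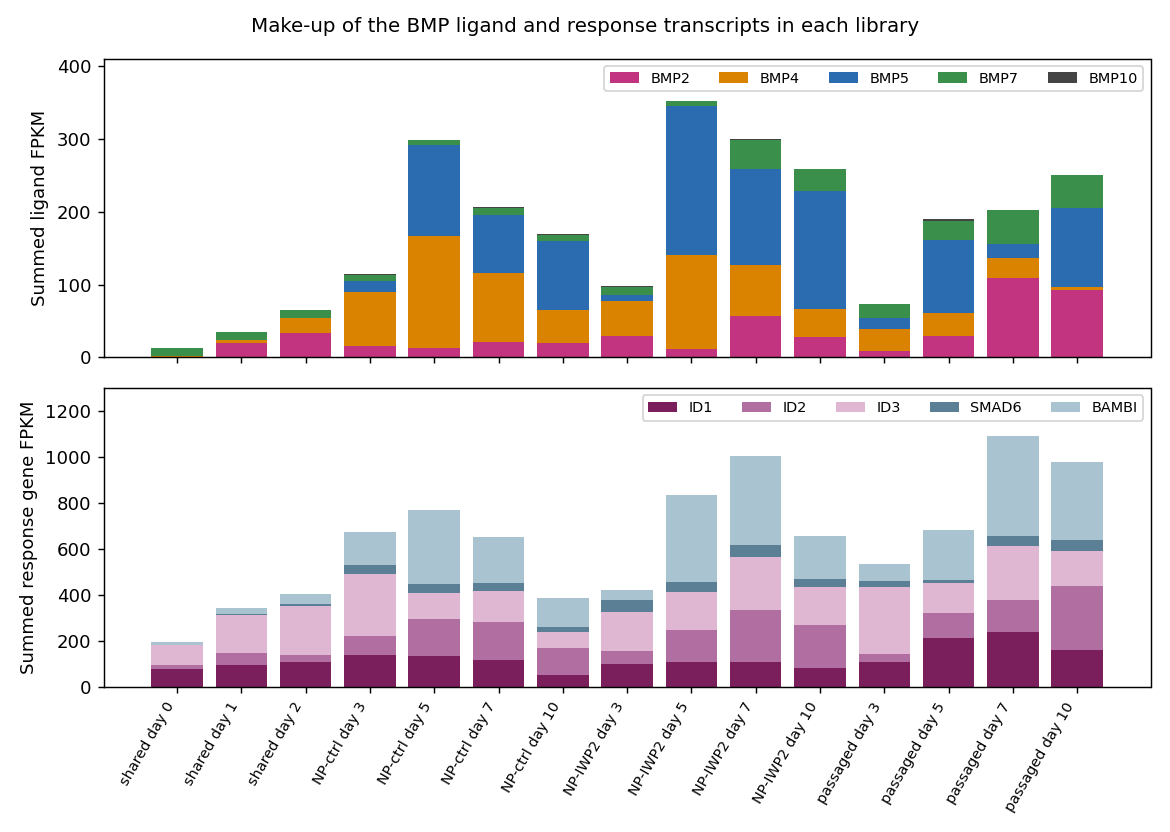
Stacked FPKM of the 5 ligands (upper panel) and the 5 response genes (lower panel) in each of the 15 libraries, with 1 bar a library and both axes starting at 0. BMP4 fills 51.5% of the NP-ctrl day 5 ligand bar and 1.33% of the passaged day 10 bar, and BAMBI is the largest response segment in every library from day 5 on.

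Other genes of the pathway were taken from a list of 56, of which 48 passed the minimum of 1 FPKM. In passaged against NP-ctrl cells over days 3 to 10, 3 of the 48 were higher and 4 lower, beside 4.4% of all genes, with a median of 0.13. These counts include GREM1, GDF2 and GDF7, which reached the minimum of 1 FPKM in only some of the arms, so they are a description. Among 15 secreted antagonists and modulators 2 were higher and 1 lower in passaged cells. CHRD, which encodes the BMP-binding antagonist chordin, had 3.11, 1.76, 1.54 and 0.72 FPKM in NP-ctrl and 5.95, 4.58, 3.23 and 1.09 in passaged cells. Its passaged minus NP-ctrl difference was 1.06 ± 0.19 (edgeR adjusted p = 0.0117). GREM1, the antagonist gremlin, had 23 to 33 counts in NP-ctrl, at most 0.17 FPKM, and 1.62, 4.72, 2.57 and 0.24 FPKM in passaged cells. For GREM1 passaged minus NP-ctrl was 3.87 ± 0.62 (edgeR adjusted p = 0.00713). Its ratio was 47.5 on day 5 (31.5 to 75.3) and 1.88 on day 10 (1.15 to 3.15). GREM1 passed the minimum of 1 FPKM only through passaged cells, so it had to differ and its call is a description. CER1, the antagonist cerberus of the anterior primitive streak and endoderm, had 200.24 and 174.18 FPKM on days 1 and 2, and on day 3 it was 6.85 in NP-ctrl, 11.08 with IWP2 and 0.18 after passaging. The day 3 counts were 137, 184 and 3, a passaged to NP-ctrl ratio of 0.026 (0.0053 to 0.0776), and from day 5 on no library had more than 16 counts, so the edgeR call (adjusted p = 0.00874) rests on few reads and was lost without day 3. CHRD and GREM1 were also called against NP-IWP2, at 1.07 ± 0.19 and 3.84 ± 0.62 (edgeR adjusted p = 0.0233 and 0.0165), and with limma or without day 5 or day 7 neither comparison called either gene.

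Of the 6 other ligands tested, 1 was higher and 1 lower in passaged than in NP-ctrl cells over days 3 to 10, beside 4.4% of all genes. GDF7 had 12.63, 11.49 and 6.85 FPKM in NP-ctrl on days 5, 7 and 10, 3.06, 1.67 and 2.49 in NP-IWP2 and 0.15, 0.17 and 0.22 in passaged cells. Its passaged minus NP-ctrl difference was −4.38 ± 0.89 (edgeR adjusted p = 0.0212). GDF2, which encodes BMP9, a ligand known from liver that acts on endothelium, had 6 and 33 counts in NP-ctrl on days 7 and 10 and 86 and 390 in passaged cells. Its passaged minus NP-ctrl difference was 3.70 ± 0.54 (edgeR adjusted p = 0.00791), a fitted size that depends on the libraries without a count on days 3 and 5. GDF2 reached 1 FPKM in NP-IWP2 and passaged cells but not in NP-ctrl, and GDF7 in NP-ctrl and NP-IWP2 but not in passaged cells, so these calls are descriptions too. On day 10 GDF2 had 0.74 FPKM in NP-ctrl, 2.39 with IWP2 and 7.75 after passaging. The 5 endoderm and liver markers summed to 17.9 FPKM in that passaged library, and a link to GDF2 was not tested. GDF6 passed in no arm difference and came on in all arms, from 0.05 FPKM on day 3 to 24.23 on day 10 in NP-ctrl, from 0.02 to 25.09 with IWP2 and from 0.55 to 13.15 after passaging. GDF2 was lost without day 7 or day 10, and GDF7 without day 5, 7 or 10.

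The other 7 response genes went in both directions. MSX1, a homeobox gene of mesenchyme and a known BMP target, had 78.55, 94.39, 165.58 and 55.76 FPKM in NP-ctrl on days 3, 5, 7 and 10, 29.87, 43.00, 48.84 and 9.76 in NP-IWP2 and 29.91, 9.60, 6.45 and 5.83 in passaged cells. For MSX1 passaged minus NP-ctrl was −2.99 ± 0.46 (edgeR adjusted p = 0.00592). The 4 fibroblast markers were 3941 FPKM in NP-ctrl and 402 in passaged cells on day 7, and their part in the MSX1 values was not tested. GATA3, which belongs to the amnion markers as well, was at −1.02 ± 0.18 in the same comparison (edgeR adjusted p = 0.0105). MSX2 went from 94.45 FPKM in NP-ctrl and 31.88 in passaged cells on day 3 to 11.36 and 44.24 on day 10, a late minus early difference of 2.92 ± 0.47 (edgeR adjusted p = 0.0149), and like SMAD6 it was lower in passaged cells first and higher later. ID4 was higher in passaged than in NP-ctrl cells in the late days, by 1.22 ± 0.28 (edgeR adjusted p = 0.0156). On day 10 it had 24.13 FPKM in NP-ctrl, 48.17 with IWP2 and 57.96 after passaging. The MSX1 call was lost without day 5, GATA3 without day 7 or 10, MSX2 without day 3 or 10 and ID4 without day 7 or 10. In all, 2 of the 7 other response genes were lower in passaged than in NP-ctrl cells over days 3 to 10 and none was higher, beside 4.4% of all genes. In the late days 2 were higher and 2 lower, beside 14.9% of all genes.

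Few receptors, signal transducers and intracellular inhibitors passed in an arm difference. Over days 3 to 10 none of 10 receptors and co-receptors, 4 transducers and 6 intracellular inhibitors passed in edgeR between passaged and NP-ctrl cells. Of these 2, 1 and 0 had an unadjusted p under 0.05, beside 4062 of the 21206 genes, and DESeq2 and limma called none of them. SMAD4 stayed within 7.20 to 17.20 FPKM and SMAD5 within 9.04 to 19.75 over the 15 libraries. SMAD9 was the transducer that passed in the late days, with 8.56 FPKM in NP-ctrl on day 10, 30.11 with IWP2 and 29.38 after passaging. Its late passaged minus NP-ctrl difference was 1.79 ± 0.33 (edgeR adjusted p = 0.00519). Over the arms it rose by 2.47 from day 3 to day 10 (edgeR adjusted p = 0.0017). Among co-receptors NEO1 fell by 1.05 and RGMA by 3.73 from day 3 to day 10, and ENG, a co-receptor of endothelium, rose by 3.14 (edgeR adjusted p = 0.00319, 0.00113 and 0.000786). The modulator BMPER went from 57.45 to 5.53 FPKM between days 3 and 10 in NP-ctrl, from 48.84 to 11.57 with IWP2 and from 43.04 to 13.54 after passaging, a fall of 2.28 (edgeR adjusted p = 0.000362), and FST, the antagonist follistatin, rose by 2.43 (edgeR adjusted p = 0.0152). Among the inhibitors SMAD7 had 21.39 FPKM in NP-ctrl and 10.89 in passaged cells on day 3 and 17.19 and 33.42 on day 10, SKIL had 12.06 and 6.24, then 11.39 and 14.58, and PMEPA1 had 2.16 and 0.61, then 1.45 and 2.14. Of these, PMEPA1 passed the late minus early test at 3.33 ± 0.52 (edgeR adjusted p = 0.0139), and it was lost without day 3, 7 or 10, as was the late SMAD9 call without day 7 or 10.

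**Figure D5:**
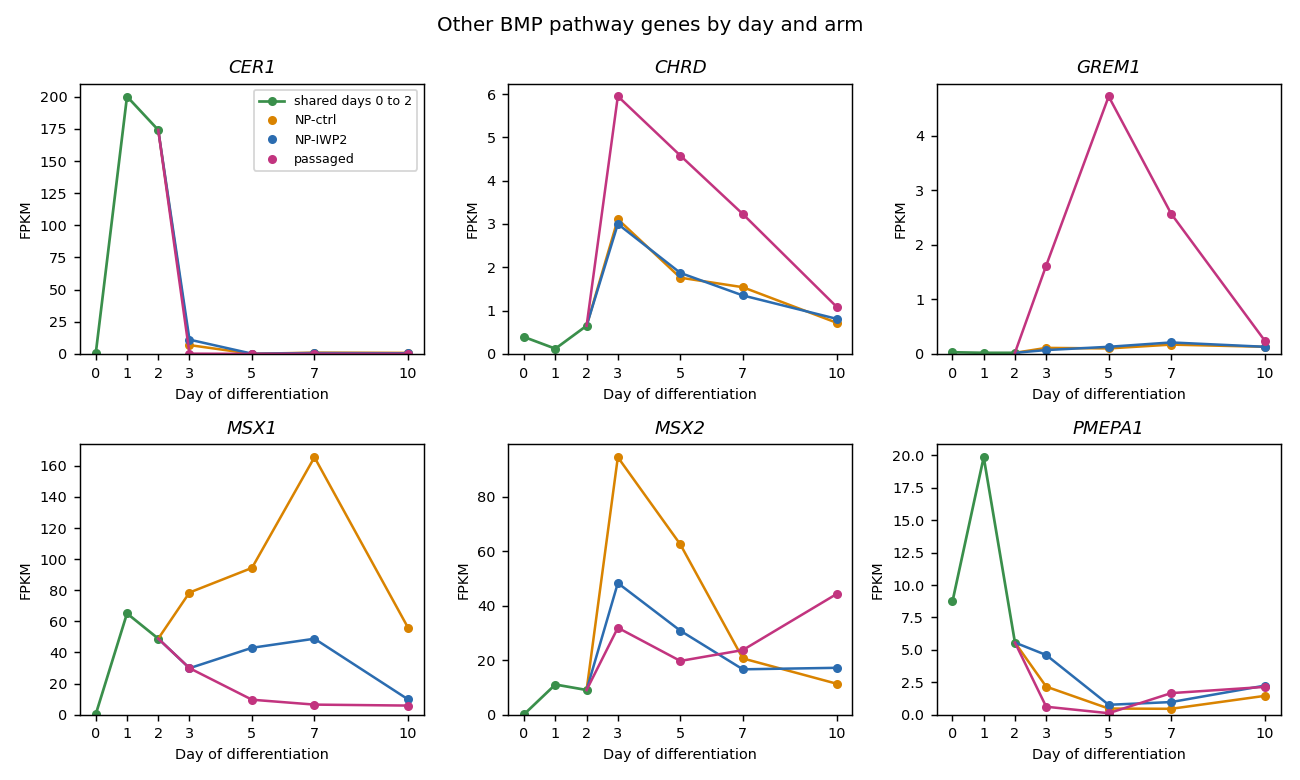
FPKM (vertical axes, each from 0) of the antagonists CER1, CHRD and GREM1, the response genes MSX1 and MSX2 and the inhibitor PMEPA1 against the day of differentiation, with 1 library a point and colours as in the key. GREM1 reaches 4.72 FPKM in passaged cells on day 5 and at most 0.21 in the other arms, and MSX1 is at most 29.91 FPKM in passaged cells from day 3 on.

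The genes whose course over the 15 libraries was most like each member were found by Pearson's correlation of log2(FPKM + 1) among 11503 genes with a highest value of at least 5 FPKM, as a description, since libraries of 1 series share days and depth. BMP4 was most like C1RL (0.947), SPIN4 (0.929) and GATA3 (0.925). SMAD6 was most like PTH1R (0.975) and GATA5 (0.966), and BMP5 most like COMMD8 (0.975) and ELMO2 (0.971). BMP7 was closest to FASTKD1 (0.934), GOT1 (0.928) and CASZ1 (0.913), and BMP2 to a gene without a symbol, ENSG00000284606 (0.881), and DELE1 (0.858). ID2 was closest to NDRG2 (0.962), BAMBI to DACT3 (0.954), ID3 to COQ10A (0.890) and ID1 to SH3BP4 (0.825). Among the members themselves the closest pairs were ID2 with BAMBI (0.906), BMP5 with BAMBI (0.877) and BMP5 with ID2 (0.871), whereas ID1 and BMP4 were at 0.0763, ID2 and ID3 at 0.0066 and BMP4 and BMP7 at −0.292.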

How the data were processed

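RNA was taken on days 0, 1 and 2 and, in each of the 3 arms, on days 3, 5, 7 and 10, with 1 library each. The authors trimmed reads with Cutadapt 1.9.1, aligned them with HISAT2 2.0.1 to hg38 and counted them per gene with HTSeq 0.6.1, as the submitters' processing notes list these tools, and deposited raw counts for 60605 genes. The authors also deposited FPKM values, which could be recomputed from the counts and exon lengths to within 0.005. The labels name a long-read library kit beside these short-read tools, so length-scaled values carry that doubt, and whether counting used the strand is not given in the sources used here. No batch is named. The annotation matched GENCODE 44 for 60463 genes, of which 93.8% had identical coordinates, all members included.

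Members were found by symbol. Genes reaching 1 FPKM in at least 1 of the 15 libraries were tested. Arm differences were fitted to the counts of 12 libraries with edgeR 4.0.16 in R 4.3.3 (TMM factors, quasi-likelihood test, day and arm as factors), and a second fit gave the arm difference for days 3 and 5, for days 7 and 10 and for late minus early. An adjusted p (Benjamini-Hochberg over all genes tested) under 0.05 was called, and the SE was taken from the fitted change and its F statistic. Because no arm has a second culture, p-values measure spread between days. Single days were compared without a test, by FPKM ratios with exact Clopper-Pearson 95% intervals (scipy 1.17.1) and by differences of log2(FPKM + 1), called at 1. That scale understates changes of low genes. No ratio was given where both libraries had at most 3 counts. Scripts were tested on simulated data.

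Named genes were the 10 members, pathway genes called in an arm difference over days 3 to 10, up to 3 genes per role with the widest range over the libraries, and the 3 genes most like each member, of which the closest are printed. Members, gene lists and tests were chosen with earlier results of these data known. Alternatives were limma 3.58.1, DESeq2 1.42.0, other filters, factors and scales, only the 2 arms compared, and leaving out each day. Promoters were 250 bases upstream of RefSeq starts, and motifs were searched on both strands.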

Additional observations from a re-analysis of the deposited data

Results flagged for a closer look

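In 6 comparisons the arm difference of a pathway gene itself differed between days 3 and 5 and days 7 and 10, by an edgeR test of late minus early. The member among them was SMAD6, at 2.31 ± 0.36 (log2, SE) for passaged against NP-ctrl cells (edgeR adjusted p = 0.0139), having been lower in passaged cells early and higher late. In the same comparison PMEPA1, an inhibitor of SMAD signalling, was at 3.33 ± 0.52 and MSX2 at 2.92 ± 0.47 (edgeR adjusted p = 0.0139 and 0.0149). PMEPA1 also differed for passaged against NP-IWP2 cells, at 3.34 ± 0.51 (edgeR adjusted p = 0.0443).

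TBX3, a T-box gene of early heart and other tissues that was named after its values were seen, was at 2.25 ± 0.44 (edgeR adjusted p = 0.028), with 27.86 FPKM in NP-ctrl and 12.99 in passaged cells on day 3 and 8.31 and 19.65 on day 10. SOSTDC1, a secreted BMP and WNT antagonist also named after its values were seen, was at −8.31 ± 1.23 (edgeR adjusted p = 0.0122), but its counts in NP-ctrl were 0, 2, 36 and 193 and in passaged cells 13, 58, 9 and 9 on days 3, 5, 7 and 10, so the fitted size depends on libraries at or under 3 counts and is not a measured fold. Each of the 6 was lost without day 10.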

How the results depend on the processing

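Without 1 day of a period, that period has 1 library per arm, which is assumed to vary like the others, and the cause of the changes below was not tested. Over the fits without 1 day, called members numbered 0 to 5 for passaged against NP-ctrl cells (2 with all days), 0 to 3 against NP-IWP2 (1), 0 to 2 early (2) and 1 to 7 late (7) against NP-ctrl, 0 to 1 early (2) and 0 to 3 late (1) against NP-IWP2, 0 to 2 late for NP-IWP2 against NP-ctrl (1), 0 to 5 for late minus early against NP-ctrl (1) and 0 to 1 against NP-IWP2 (0). DESeq2 called 6 members from day 3 to day 10 (3 in edgeR), 5 for late minus early passaged against NP-ctrl (1), 2 each for late NP-IWP2 against NP-ctrl and late passaged against NP-IWP2 (1 each) and 1 each for the late minus early differences that involve NP-IWP2 (0 each). Without the filter on low values these were 7, 7, 5, 4, 3 and 3, with 4 each for passaged against either arm over all days, 5 early against NP-ctrl and 1 for NP-IWP2 against NP-ctrl. limma called 3 late for passaged against NP-ctrl and 0 for passaged against NP-IWP2, for both early comparisons, for late passaged against NP-IWP2 and for late minus early against NP-ctrl. A mean of at least 1 FPKM left 0 for passaged against NP-IWP2 over all days and late, and 1 each early. With only the 2 arms compared, 1 remained against NP-ctrl and 0 against NP-IWP2. On single days a log2 difference of at least 2 instead of 1 kept 6 of 22 member values for passaged against NP-ctrl, 3 of 13 against NP-IWP2, 0 of 5 for NP-IWP2 against NP-ctrl and 1 for each shared step, and a pseudocount of 5 left 1 of 2 from day 1 to day 2. FST early, passaged against NP-ctrl, turned from 0.26 to −1.96 without day 3 and was 2.08 without day 5, and its late minus early difference turned from 0.25 to −1.59 without day 5 and was 2.47 without day 3.

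Over all genes, passaged against NP-ctrl gave 933 calls in edgeR, 2150 in DESeq2, 2571 without the filter, 163 in limma, 109 with only 2 arms and 133 to 2373 without 1 day. Passaged against NP-IWP2 gave 282, 892, 1368, 6, 163 and 13 to 675, and NP-IWP2 against NP-ctrl gave 4, 55, 372, 0, 277 and 0 to 35. Late passaged against NP-ctrl gave 3169 and 363 to 3950 without 1 day, late against NP-IWP2 668, with DESeq2 1186, without the filter 2084, with limma 146 and at a mean of 1 FPKM 419, and late NP-IWP2 against NP-ctrl 342, 901, 1758 and 77. Late minus early against NP-ctrl gave 701, 1494, 2446 and 198, and 1 without day 10, and against NP-IWP2 45, 407, 1073 and 0, with 0 to 278 without 1 day. For NP-IWP2 against NP-ctrl, late minus early gave 1, 91, 481 and 1, and early 0, 7, 113 and 0. Early passaged against NP-ctrl gave 207, 653, 1374 and 0, and early against NP-IWP2 193, 605, 1273 and 3. Day 10 against day 3 gave 7423, 8191, 8428 and 7464, and limma called 2520 genes for late passaged against NP-ctrl. Of the named fitted values, 4365 kept their side of the threshold, and those called also kept direction. Changes of sign among values that neither fit called were not counted apart. A further 202 lost and 221 gained a call, and 2 turned with a call in either fit. The arms are matched by day, which is a factor in every fit, and no replicate block was added because the labels give no replicate numbers.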
